A study of Mus musculus with 15 samples.

Results

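The genes described are 34 genes of the endoplasmic reticulum (ER) that fold, modify, import or clear secretory proteins, or that signal when unfolded proteins build up there. They were taken from a list of gene symbols, and each gene was represented by its brightest probe set over the 15 arrays. All 34 were measured, of 17097 genes with a named probe set. The list goes by gene function and was drawn up with earlier results of these data known.

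The cells came from bone marrow of female C57Bl/6 mice treated with 5-fluorouracil, a drug that kills dividing cells. The marrow was transduced with a retroviral vector, either MSCV-HOXB4-ires-YFP or the control MSCV-ires-GFP, and transplanted into lethally irradiated C57Bl/6 recipients. HOXB4 is a homeobox transcription factor that expands blood stem cells when it is overexpressed. Fluorescent LSK cells, a marrow fraction without lineage markers that carries Sca-1 and Kit and contains stem and early progenitor cells, were sorted later. The groups were HOXB4 at 6, 12 and 20 weeks and GFP at 12 and 20 weeks after transplantation, with 3 arrays each. The series text gives 24 weeks for the last time, and the sample titles, which were followed here, give 20 weeks. All 5 groups share the drug, the transduction, the irradiation of the recipients and the sort. The control vector lacks HOXB4 and also carries another fluorescent protein. Ages were not given in the sources used here, nor whether arrays of a group came from separate or pooled mice, and the p-values therefore cover the array-to-array spread alone, which can be technical.

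Proteins bound for secretion or for membranes enter the ER through the SEC61 channel, fold there with the help of chaperones and disulfide isomerases, and are sent to the proteasome by ER-associated degradation when folding fails. An overload is sensed by IRE1 (gene Ern1), PERK (Eif2ak3) and ATF6. IRE1 splices the mRNA of Xbp1 into a form that drives chaperone, translocon and degradation genes, ATF6 is cleaved to an activator of chaperones, and PERK favours translation of ATF4, which drives Ddit3, Trib3 and Ppp1r15a. In blood formation this machinery is large in cells that secrete or store much protein, such as plasma cells and granulocyte precursors.

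At 20 weeks 12 of the 34 genes were lower in HOXB4 than in GFP cells, among them the chaperones Hspa5, Hyou1 and Sdf2l1, the folding genes Calr, Pdia4, Pdia6 and P4hb, the degradation genes Edem1 and Sel1l, Sec61b, Ern1 and Xbp1. At 12 weeks 5 were lower, Hyou1, Sdf2l1, Creld2, Pdia4 and Edem1. All 17 of these calls were in the same direction, with falls between 1.37-fold and 2.3-fold. A gene was called when limma's Benjamini-Hochberg adjusted p over all 17097 genes was under 0.05. The ATF4 branch (Atf4, Ddit3, Trib3, Ppp1r15a) was called in neither comparison.

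The share of the 34 called lower was 14.7% at 12 weeks, beside 2.2% of all genes called lower and 1.82% called higher. That background was unsteady: the 376 genes lower and 312 higher became 227 and 267 when the quantile normalisation was repeated, and leaving out any one array compared gave 93 to 169 lower and 115 to 193 higher, with more higher than lower each time. Members called lower then numbered 4 with the repeated normalisation and 3 to 4 with an array left out, and 0 were higher. At 20 weeks it was 35.3%, beside 5.18% of all genes lower and 3.77% higher. The median log2 difference (HOXB4 minus GFP) of the 34 was -0.28 at 12 weeks and -0.43 at 20 weeks, whereas that of all genes was -0.02 and 0.02. The difference was below 0 for 23 of 34 genes at 12 weeks and for 30 of 34 at 20 weeks. All 3 HOXB4 arrays lay below all 3 GFP arrays for 18 of the 34 genes at each time, beside 20.5% of all genes at 12 weeks and 12.5% at 20 weeks. They lay above for 4 genes at 12 weeks and 1 at 20 weeks, beside 14.4% and 12.9% of all genes. For 1 gene, the smallest p that an exact two-sided permutation of 3 against 3 arrays allows is 0.1.

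**Figure D1:**
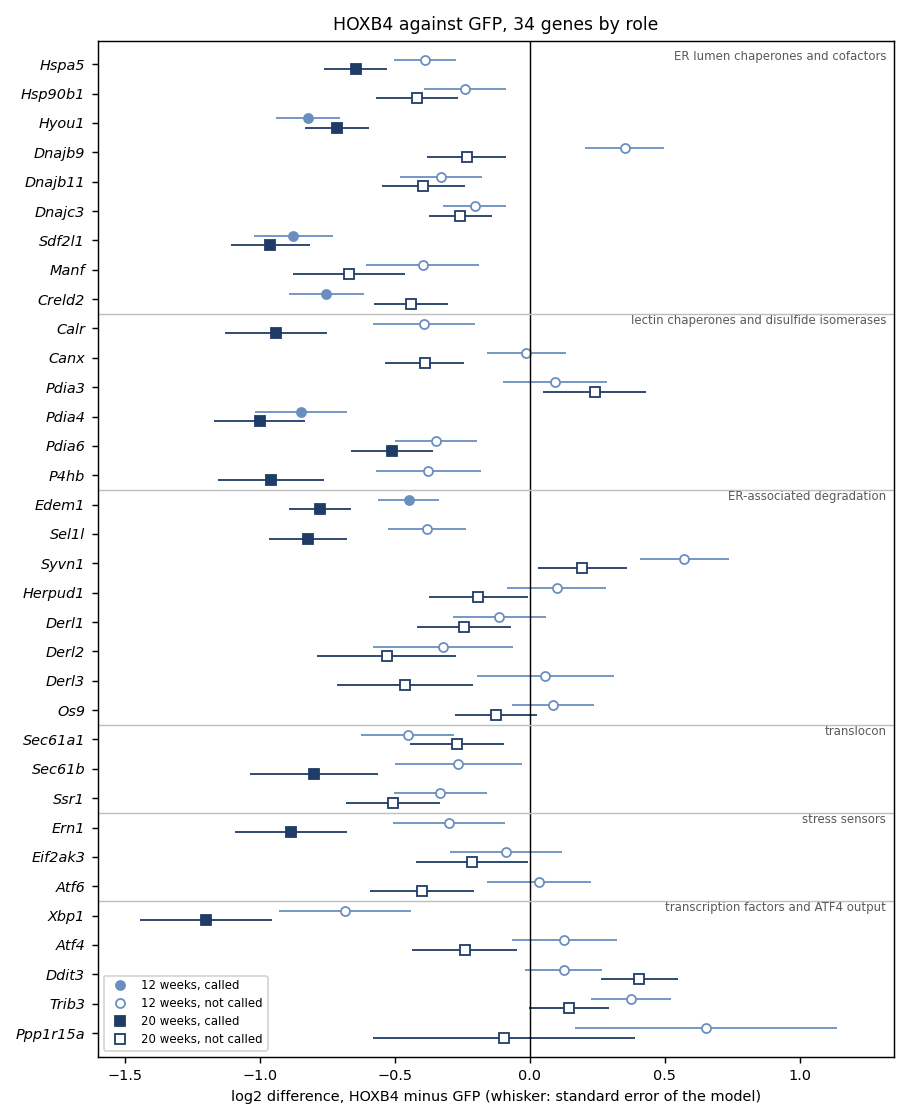
Log2 difference between HOXB4 and GFP arrays for each of the 34 genes, ordered by role; circles are 12 weeks, squares 20 weeks, filled symbols are called genes and whiskers the standard error of the model. Every filled symbol lies left of 0, with Xbp1 at 20 weeks the farthest at -1.20.

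Taking the mean of both times, 16 genes were lower and 1, Syvn1, was higher, beside 9.16% of all genes lower and 6.19% higher. When each array was centred on its median, the split over all genes at both times moved from 1566 lower and 1059 higher to 1936 lower and 810 higher. Hyou1, Sdf2l1, Pdia4 and Edem1 were lower at both times. These 4 genes are 80% of the 5 called at 12 weeks and 33.3% of the 12 called at 20 weeks. Over all genes, 194 were lower at both times, 51.6% of those lower at 12 weeks and 21.9% of those lower at 20 weeks. A change of the HOXB4 effect from 12 to 20 weeks was called by limma for none of the 34, with 2 at an unadjusted p under 0.05, beside 0.386% of all genes called lower and 0.123% called higher. Its median over the 34 was -0.24.

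Several of these genes are known for a shared promoter sequence, the ER stress response element (ERSE), which is CCAAT, a spacer of 9 bases and CCACG, and which is bound by NF-Y and by ATF6 or XBP1. It was searched on both strands of RefSeq promoters (GRCm38.p6, 250 bases before to 50 after the start, 300 bases in all). Of the 34 genes 29 had an entry, and Hyou1, Manf, Derl1, Sec61a1 and Atf6 had none. The ERSE was found in 9 of these 29 genes (31%), beside 37 of 27025 genes in the table (0.137%; 39 of 32851 promoters, 0.119%). The 250 bases before the start of Hspa5, which encodes the chaperone BiP, are shown because the gene is a textbook carrier of the element. Capitals mark the parts of the element, written 5′ to 3′ along the gene, with coordinates of GRCm38.p6.
Hspa5 promoter (chr2:34771840-34772089, plus strand): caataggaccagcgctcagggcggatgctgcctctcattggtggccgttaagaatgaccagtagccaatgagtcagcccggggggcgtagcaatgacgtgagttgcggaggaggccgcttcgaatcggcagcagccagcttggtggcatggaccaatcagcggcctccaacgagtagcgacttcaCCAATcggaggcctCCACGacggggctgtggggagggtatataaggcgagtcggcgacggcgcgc
The matches in the other 8 genes follow, each written from CCAAT to CCACG whichever strand holds it, so that the fixed parts can be read against the varied spacers.
Hsp90b1 (chr10:86705638-86705656, gene on the minus strand): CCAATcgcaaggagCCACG
Hsp90b1 (chr10:86705533-86705551, gene on the minus strand): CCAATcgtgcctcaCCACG
Dnajc3 (chr14:118937827-118937845, gene on the plus strand): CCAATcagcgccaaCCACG
Creld2 (chr15:88819520-88819538, gene on the plus strand): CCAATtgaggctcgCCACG
Calr (chr8:84847075-84847093, gene on the minus strand): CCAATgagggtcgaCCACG
Canx (chr11:50325800-50325818, gene on the minus strand): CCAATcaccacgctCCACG
Pdia6 (chr12:17266491-17266509, gene on the plus strand): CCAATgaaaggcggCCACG
Syvn1 (chr19:6046532-6046550, gene on the plus strand): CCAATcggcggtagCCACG
Derl3 (chr10:75893242-75893260, gene on the plus strand): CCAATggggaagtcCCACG

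A second element, ERSE-II (ATTGG, 1 base, CCACG), shares the CCACG part with the ERSE but overlapped no ERSE in these genes. It was present in 2 of 29 (6.9%), beside 12 of 27025 genes (0.0444%).
Dnajb11 (chr16:22857852-22857862, gene on the plus strand): ATTGGcCCACG
Herpud1 (chr8:94386377-94386387, gene on the plus strand): ATTGGgCCACG
The core TGACGTGG, bound by XBP1 and ATF6, was in none of the 30 promoter windows of the 29 genes and in 0.714% of all genes. The C/EBP-ATF element TTGCATCA was found in Herpud1 alone (3.45%, beside 1.03% of all genes). Of the 12 genes lower at 20 weeks 11 had an entry, and 3 of these, Hspa5, Calr and Pdia6, held the ERSE (27.3%). The other 6 carriers, Hsp90b1, Dnajc3, Creld2, Canx, Syvn1 and Derl3, were not called at 20 weeks. A match is a description of the sequence, and no binding was measured.

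Among chaperones and cofactors of the ER lumen, 3 of 9 were lower at 12 weeks and 3 of 9 at 20 weeks, and 6 of 9 over both times. The shares of all genes called lower were 2.2%, 5.18% and 9.16%. The median difference of the 9 was -0.39 at 12 weeks and -0.44 at 20 weeks. The mean log2 signal of the 9 genes was 9.501 to 9.61 on the GFP arrays and 9.09 to 9.20 on the HOXB4 arrays at 12 weeks. At 20 weeks it was 9.47 to 9.64 on GFP and 8.82 to 9.18 on HOXB4 arrays, so that the groups did not overlap at either time.

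Hspa5 encodes BiP, the HSP70 chaperone that binds unfolded chains and holds the sensors inactive. Its log2 signal was 10.76, 10.47 and 10.69 on the GFP arrays and 10.19, 10.24 and 10.33 on the HOXB4 arrays at 12 weeks. The later values were 10.67, 10.63 and 10.49 on GFP and 10.14, 9.896 and 9.82 on HOXB4 arrays. The HOXB4 arrays were below the GFP arrays at both times. The difference was -0.39 ± 0.12 (log2, ± standard error of the model) at 12 weeks, which missed the threshold (adjusted p = 0.0731), and -0.65 ± 0.12 at 20 weeks, a 1.56-fold fall (adjusted p = 0.00241).

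Hyou1 (GRP170) is an HSP110-type chaperone that also exchanges nucleotide on BiP. It read 10.37, 10.44 and 10.12 in GFP cells and 9.44, 9.57 and 9.45 in HOXB4 cells at 12 weeks. The values at 20 weeks were 10.34, 10.63 and 10.33 in GFP cells and 9.69, 9.79 and 9.68 in HOXB4 cells. Every HOXB4 array at these times was at or under 9.79, and every GFP array at or above 10.12. The fall was 1.77-fold at 12 weeks (-0.82 ± 0.12, adjusted p = 0.00294) and 1.64-fold at 20 weeks (-0.71 ± 0.12, adjusted p = 0.00146).

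Sdf2l1 keeps ER proteins from aggregating together with an HSP40 partner. On the arrays of 12 weeks it was 9.001, 8.92 and 9.09 with GFP and 8.04, 8.16 and 8.18 with HOXB4. On those of 20 weeks it was 9.05, 9.12 and 8.99 with GFP and 8.35, 8.16 and 7.77 with HOXB4. The GFP arrays of both times stayed within a narrow band, and the third HOXB4 array at 20 weeks was the lowest of the 15. Sdf2l1 fell 1.84-fold at 12 weeks (-0.88 ± 0.15, adjusted p = 0.00579) and 1.95-fold at 20 weeks (-0.96 ± 0.15, adjusted p = 0.000757).

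Creld2 encodes a secreted ER stress-inducible protein with EGF-like domains. At 12 weeks its signal was 8.63, 8.59 and 8.49 in GFP cells and 7.86, 7.78 and 7.81 in HOXB4 cells, a 1.69-fold fall (-0.75 ± 0.14, adjusted p = 0.00847). At 20 weeks the arrays again did not overlap, with 8.47, 8.51 and 8.77 in GFP cells and 8.12, 8.21 and 8.097 in HOXB4 cells. The difference there was -0.44 ± 0.14 and missed the threshold (adjusted p = 0.0632).

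Manf, a secreted survival factor that associates with BiP, and Dnajb11, an HSP40 co-chaperone of BiP, were lower when both times were averaged. Manf was 9.33, 9.26 and 9.297 in GFP cells and 8.798, 8.88 and 9.02 in HOXB4 cells at 12 weeks, then 9.47, 9.37 and 9.03 in GFP cells and 9.08, 8.702 and 8.08 in HOXB4 cells at 20 weeks. Its arrays did not overlap at 12 weeks and overlapped at 20 weeks, where the third HOXB4 array was far below the others. The mean difference was -0.53 ± 0.15 (adjusted p = 0.0246), and it missed the threshold without replicate 1 or 3 of GFP at 12 weeks, 1 or 2 of HOXB4 at 12 weeks, or 1 or 2 of GFP at 20 weeks. Dnajb11 was 9.91, 9.56 and 9.72 in GFP cells and 9.33, 9.38 and 9.49 in HOXB4 cells at 12 weeks; the 20-week values were 9.55, 9.65 and 9.48 with GFP and 9.37, 9.23 and 8.89 with HOXB4. The HOXB4 arrays were the lower ones at each time, and the mean difference was -0.36 ± 0.11 (adjusted p = 0.0356). That call was lost without any of the same 6 arrays or HOXB4 replicate 3 of 20 weeks, and when the quantile normalisation was repeated.

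Hsp90b1 (GRP94), the HSP90 of the ER, and Dnajc3, a BiP co-chaperone that also inhibits PERK, were below GFP on all HOXB4 arrays of both times but were not called. For Hsp90b1 the difference was -0.24 ± 0.15 at 12 weeks and -0.42 ± 0.15 at 20 weeks (adjusted p = 0.419 and 0.111). A second probe set of Hsp90b1 was called lower at 20 weeks (-0.40 ± 0.10, adjusted p = 0.0283 over the 28898 named probe sets). Dnajb9, an HSP40 that keeps IRE1 inactive through BiP, went the other way at 12 weeks, when its HOXB4 arrays were above GFP, by 0.35 ± 0.15 (adjusted p = 0.202). At 20 weeks the difference was -0.23 ± 0.15, with overlapping arrays. No other member had a smaller unadjusted p for the difference between both effects (-0.59 ± 0.21, adjusted p = 0.301).

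**Figure D2:**
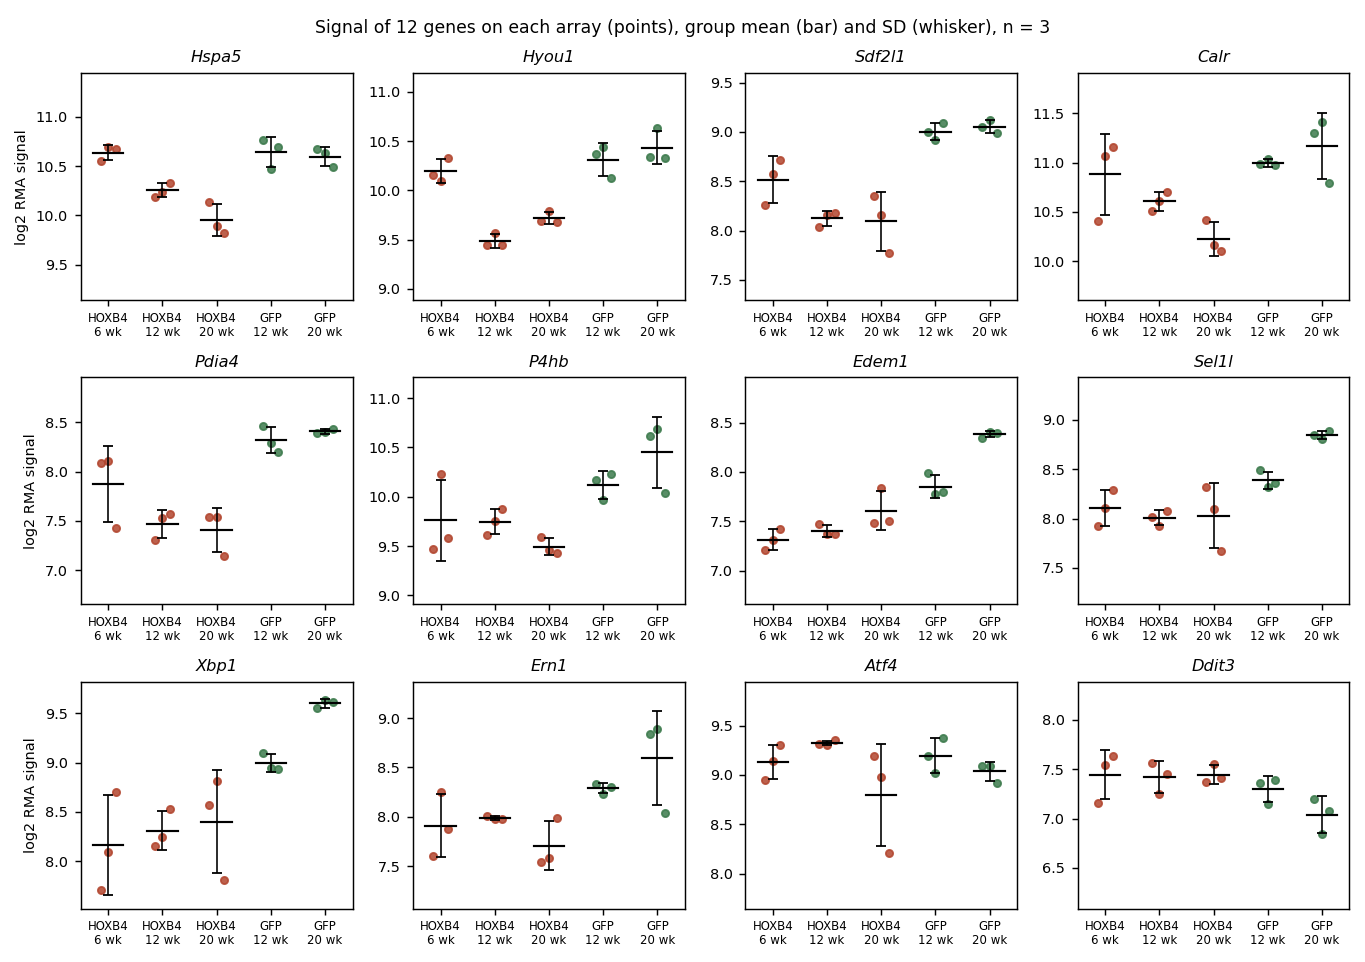
Log2 signal of 12 of the genes on every array, with bars for group means and whiskers for SD (n = 3). HOXB4 arrays of 12 and 20 weeks lie below the GFP arrays of the same time for Hspa5, Hyou1, Sdf2l1, Calr, Pdia4, P4hb, Edem1, Sel1l, Xbp1 and Ern1, and overlap them for Atf4.

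Of the 6 lectin chaperones and disulfide isomerases 1 was lower at 12 weeks and 4 at 20 weeks, beside 2.2% and 5.18% of all genes. The median of the 6 was -0.36 and -0.72. Pdia4 (ERp72), which forms and rearranges disulfide bonds, was 8.46, 8.29 and 8.201 in GFP cells and 7.31, 7.53 and 7.57 in HOXB4 cells at 12 weeks. Its values at 20 weeks were 8.39, 8.41 and 8.44 in GFP cells and 7.54, 7.54 and 7.15 in HOXB4 cells. No HOXB4 array of these times exceeded 7.57, and no GFP array was under 8.201. Pdia4 fell 1.8-fold at 12 weeks (-0.85 ± 0.17, adjusted p = 0.0132) and 2-fold at 20 weeks (-1.001 ± 0.17, adjusted p = 0.00154). The call at 12 weeks was lost without GFP replicate 1 or without HOXB4 replicate 1 of that time (adjusted p up to 0.0712).

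Calr encodes calreticulin, a calcium-binding lectin that retains glycoproteins until they fold. It was 10.98, 11.04 and 10.97 in GFP cells and 10.51, 10.61 and 10.7 in HOXB4 cells at 12 weeks; the 20-week values were 11.3, 11.41 and 10.79 with GFP and 10.42, 10.16 and 10.1 with HOXB4. The arrays were apart at both times, though GFP replicate 3 of 20 weeks was well below its 2 partners. The difference was -0.39 ± 0.19 at 12 weeks (adjusted p = 0.268) and -0.94 ± 0.19 at 20 weeks, a 1.92-fold fall (adjusted p = 0.00551). Canx, the membrane-bound relative calnexin, differed by -0.39 ± 0.15 at 20 weeks with overlapping arrays (adjusted p = 0.123), while a second, dimmer probe set of it was called lower (-0.67 ± 0.14, adjusted p = 0.0068).

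P4hb encodes protein disulfide isomerase itself, and Pdia6 a related isomerase that also acts on IRE1. P4hb was 10.17, 9.96 and 10.23 in GFP cells and 9.61, 9.75 and 9.87 in HOXB4 cells at 12 weeks. At 20 weeks P4hb was 10.62, 10.69 and 10.04 in GFP cells and 9.59, 9.46 and 9.43 in HOXB4 cells, and it fell 1.94-fold (-0.96 ± 0.195, adjusted p = 0.00607). The 3 GFP arrays at 20 weeks were more widely spread than the HOXB4 arrays and all above them. Pdia6 was 9.13, 9.06 and 9.35 in GFP cells and 8.84, 8.87 and 8.78 in HOXB4 cells at 12 weeks; the 20-week values were 9.11, 9.14 and 8.99 with GFP and 8.63, 8.42 and 8.65 with HOXB4. Its groups did not overlap at either time. The 20-week difference of -0.51 ± 0.15 was called (adjusted p = 0.0498), and 11 of 15 alternative analyses ended that call, among them the removal of any one of the 6 arrays compared. Pdia3 (ERp57), the isomerase that works with calnexin and calreticulin, had a single probe set with a mean signal of 5.78, close to the array medians of 5.247 to 5.397, and nothing was read from it. Pdia3 remains in the counts and the median of its class.

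In ER-associated degradation 1 of 8 genes was lower at 12 weeks and 2 of 8 at 20 weeks, beside 2.2% and 5.18% of all genes. Edem1, a mannosidase-like lectin that extracts misfolded glycoproteins, was 7.98, 7.77 and 7.795 in GFP cells and 7.47, 7.37 and 7.37 in HOXB4 cells at 12 weeks. At 20 weeks Edem1 was 8.35, 8.41 and 8.39 in GFP cells and 7.48, 7.84 and 7.51 in HOXB4 cells. The GFP arrays were higher at 20 than at 12 weeks, and the HOXB4 arrays were below GFP at each time. Edem1 fell 1.71-fold at 20 weeks (-0.78 ± 0.11, adjusted p = 0.000564). The 12-week fall of 1.37-fold (-0.45 ± 0.11, adjusted p = 0.0412) was lost in 11 of 15 alternatives, again including the removal of any one of the 6 arrays.

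Sel1l is the adaptor that holds the ubiquitin ligase complex together. Its signal was 8.49, 8.32 and 8.36 with GFP and 8.02, 7.93 and 8.08 with HOXB4 at 12 weeks, and 8.85, 8.81 and 8.89 with GFP and 8.32, 8.09 and 7.67 with HOXB4 at 20 weeks. The GFP arrays of 20 weeks were the highest of all. Sel1l differed by -0.38 ± 0.15 at 12 weeks (adjusted p = 0.163) and fell 1.77-fold at 20 weeks (-0.82 ± 0.15, adjusted p = 0.00226).

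Syvn1 (HRD1), the ubiquitin ligase that pairs with SEL1L, did not follow its partner. It was 6.83, 7.099 and 6.82 in GFP cells and 7.52, 7.44 and 7.499 in HOXB4 cells at 12 weeks, then 7.35, 7.296 and 7.67 in GFP cells and 7.91, 7.25 and 7.74 in HOXB4 cells at 20 weeks. HOXB4 arrays were above GFP at 12 weeks and overlapped them at 20 weeks. Over both times Syvn1 was 1.3-fold higher (0.38 ± 0.12, adjusted p = 0.0386). That call was lost in 11 of 21 alternatives, among them centring each array and leaving out any array but GFP replicate 2 of 12 weeks, GFP replicate 3 of 20 weeks or HOXB4 replicate 2 of 20 weeks. At single times the difference was 0.57 ± 0.17 (adjusted p = 0.0681) and 0.19 ± 0.17 (adjusted p = 0.547).

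The remaining degradation genes, the membrane protein gene Herpud1, the derlins Derl1, Derl2 and Derl3 and the lectin gene Os9, had overlapping arrays at both times and were not called. Their differences ran from -0.32 for Derl2 to 0.09917 for Herpud1 at 12 weeks and from -0.53 for Derl2 to -0.13 for Os9 at 20 weeks. The mean signal of the 8 genes was 7.68 to 7.73 on GFP and 7.57 to 7.72 on HOXB4 arrays at 12 weeks. At 20 weeks it was 7.996 to 8.12 on GFP and 7.52 to 7.81 on HOXB4 arrays, so that these genes as a set separated the groups at the later time alone.

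The translocon genes were Sec61a1 and Sec61b, subunits of the import channel, and Ssr1, a subunit of the associated TRAP complex. All 3 differences were negative at both times, and Sec61b was called at 20 weeks. Sec61b was 10.36, 10.49 and 10.56 in GFP cells and 10, 10.37 and 10.23 in HOXB4 cells at 12 weeks, with overlap. It was 10.84, 10.9 and 10.55 in GFP cells and 10.26, 10.07 and 9.57 in HOXB4 cells at 20 weeks, without overlap. The 20-week fall was 1.74-fold (-0.7989 ± 0.24, adjusted p = 0.0477), and 7 of 15 alternatives ended that call, 4 of them by leaving out GFP replicate 1 or 2 or HOXB4 replicate 2 or 3 of 20 weeks.

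Ssr1 was 10.51, 10.4 and 10.66 in GFP cells and 10.14, 10.18 and 10.25 in HOXB4 cells at 12 weeks; the 20-week values were 10.54, 10.63 and 10.09 with GFP and 9.99, 9.82 and 9.93 with HOXB4. HOXB4 arrays were the lower ones at each time. Over both times Ssr1 fell 1.34-fold (-0.42 ± 0.12, adjusted p = 0.0319), a call that 9 of the 12 removals of 1 array and the repeated quantile normalisation ended. At 20 weeks alone the brightest probe set missed the threshold (adjusted p = 0.0885), while 3 dimmer probe sets of Ssr1 were called lower, by -1.07, -0.72 and -0.57. For Sec61a1 the brightest probe set differed by -0.27 ± 0.17 at 20 weeks (adjusted p = 0.399), and a dimmer one was called lower (-0.80 ± 0.19, adjusted p = 0.0147).

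Of the 3 stress sensors 1, Ern1, was lower at 20 weeks, beside 5.18% of all genes. Ern1 was 8.33, 8.23 and 8.304 in GFP cells and 8.01, 7.98 and 7.97 in HOXB4 cells at 12 weeks. At 20 weeks Ern1 was 8.84, 8.89 and 8.04 in GFP cells and 7.55, 7.58 and 7.99 in HOXB4 cells. The groups were apart at both times, by a small margin at 20 weeks, when GFP replicate 3 lay near the highest HOXB4 array. The differences were -0.3004 ± 0.21 at 12 weeks (adjusted p = 0.467) and -0.89 ± 0.21 at 20 weeks, a 1.85-fold fall (adjusted p = 0.0142). The 20-week call was lost without GFP replicate 1 or GFP replicate 2 of that time, or when the groups compared were fitted alone (adjusted p up to 0.0987), and 2 of its 4 other probe sets were called lower.

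Eif2ak3 was 6.07, 6.03 and 5.88 in GFP cells and 5.92, 5.94 and 5.86 in HOXB4 cells at 12 weeks; the 20-week values were 5.901, 6.097 and 6.51 with GFP and 5.96, 6.18 and 5.73 with HOXB4. Its arrays overlapped at both times, and the 95% interval of the difference was -0.53 to 0.35 at 12 weeks and -0.66 to 0.23 at 20 weeks. Atf6 was 6.59, 6.45 and 6.45 in GFP cells and 6.42, 6.49 and 6.68 in HOXB4 cells at 12 weeks; the 20-week values were 6.43, 6.62 and 6.46 with GFP and 6.29, 6.49 and 5.53 with HOXB4. It overlapped too, with HOXB4 replicate 3 of 20 weeks far below the rest, and its interval at 20 weeks was -0.81 to 0.01. Neither gene was called, and these intervals leave room for falls of the size seen for Hspa5. Eif2ak3 was also dim, with group means of 5.42 to 6.17 beside array medians of 5.247 to 5.397. Such a value may be background.

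Xbp1 had the largest fall of the 34 genes at 20 weeks. It was 9.098, 8.95 and 8.93 in GFP cells and 8.15, 8.25 and 8.53 in HOXB4 cells at 12 weeks. By 20 weeks GFP cells were at 9.55, 9.64 and 9.61 and HOXB4 cells at 8.57, 8.82 and 7.81. HOXB4 arrays were lower at both times, and at 20 weeks the 3 GFP arrays lay close together while the HOXB4 arrays were widely spread. The difference was -0.68 ± 0.24 at 12 weeks (adjusted p = 0.135) and -1.2 ± 0.24 at 20 weeks, a 2.3-fold fall (adjusted p = 0.00603). The 3 other probe sets of Xbp1 were called lower at 20 weeks as well, by -0.95, -0.9955 and -1.02, and 1 of them at 12 weeks (-0.78 ± 0.15, adjusted p = 0.0137). Spliced and unspliced Xbp1 mRNA are not told apart by these values.

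The other 4 genes of this class belong to the ATF4 branch, and none was called by limma at either time, with 1 at an unadjusted p under 0.05 at each (Trib3 at 12 weeks, Ddit3 at 20 weeks). Atf4 was 9.19, 9.02 and 9.38 in GFP cells and 9.32, 9.304 and 9.35 in HOXB4 cells at 12 weeks; the 20-week values were 9.09, 9.09 and 8.92 with GFP and 9.19, 8.98 and 8.21 with HOXB4. Its arrays overlapped, with 95% intervals of -0.29 to 0.54 at 12 weeks and -0.66 to 0.18 at 20 weeks. Ddit3 (CHOP), a factor that promotes cell death under lasting stress, was 7.36, 7.14 and 7.39 in GFP cells and 7.57, 7.25 and 7.45 in HOXB4 cells at 12 weeks; the 20-week values were 7.202, 6.84 and 7.08 with GFP and 7.37, 7.55 and 7.41 with HOXB4. At 20 weeks its HOXB4 arrays were all above the GFP arrays, by 0.41 ± 0.14, and this missed the threshold (adjusted p = 0.0995).

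Trib3, a pseudokinase that restrains ATF4, was dim on all arrays (3.82 to 4.63) and differed by 0.37 ± 0.15 at 12 weeks and 0.14 ± 0.15 at 20 weeks. Ppp1r15a (GADD34), which reverses the translational block set by PERK, was the most variable of the 34. It ranged from 5.65 to 8.35 among the HOXB4 arrays of 6 weeks, and its HOXB4-minus-GFP intervals were -0.38 to 1.69 at 12 weeks and -1.13 to 0.94 at 20 weeks. At 12 weeks all HOXB4 arrays were above the GFP arrays for Trib3 and for Ppp1r15a (7.05 to 7.25 against 6.10 to 6.84). The shares of all genes at that time included 14.4% placed above. Atf4 and Ddit3 overlapped then. Unlike in the lumen chaperones, the mean of the 5 genes overlapped between groups at both times. Xbp1, which was lower on all HOXB4 arrays, is part of that mean.

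**Figure D3:**
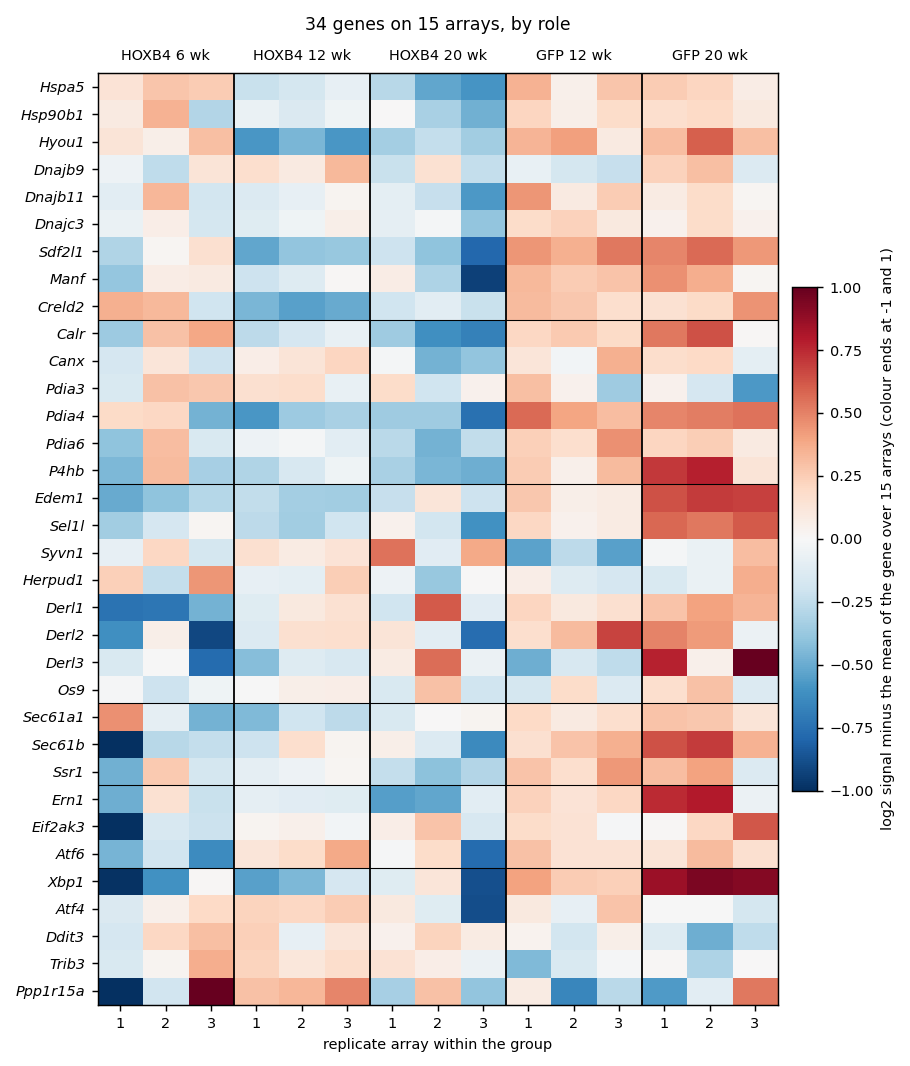
Each row is 1 of the 34 genes and each column 1 array; colour is the log2 signal minus the mean of that gene over the 15 arrays, clipped at -1 and 1. The GFP columns of 20 weeks are mostly red and the HOXB4 columns of 20 weeks mostly blue, while rows such as Syvn1, Herpud1, Os9, Ddit3 and Trib3 are mixed or reversed.

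Other probe sets were available for 21 of the 34 genes, 39 in all. Tested over the 28898 named probe sets, 13 of them were lower at 20 weeks and 1 at 12 weeks, and 0 were called opposite to the tested probe set in any of the 8 comparisons. In that larger fit Pdia6 and Sec61b missed the threshold at 20 weeks (adjusted p = 0.0536 and 0.0512).

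Over time within the GFP cells, Edem1 rose from 12 to 20 weeks (0.53 ± 0.11, 1.45-fold, adjusted p = 0.0228). It was the only one of the 34 called, beside 1.14% of all genes lower and 1.23% higher, and the call was lost without GFP replicate 2 or 3 of 12 weeks or GFP replicate 1 or 2 of 20 weeks. Besides Edem1 the largest rises of the 34 were those of Xbp1 (0.61 ± 0.24), Derl3 (0.95 ± 0.25), Sel1l (0.46 ± 0.15) and Syvn1 (0.52 ± 0.17). These were not called by limma (adjusted p = 0.281, 0.0684, 0.135 and 0.135). Derl3 had a mean of 5.96 in GFP cells of 12 weeks, near the array medians of 5.247 to 5.397, where a value may be background. Dimmer probe sets of Sel1l and Ern1 were called higher, by 0.53 and 0.69. Markers of other cells moved over the same interval: 7 of 12 mature neutrophil genes (median 3.01) and 7 of 11 monocyte genes (median 1.11) rose, and 4 of 8 megakaryocyte genes fell (median -1.09). Of 7 measured genes listed for LSK cells 2, Cd34 and Procr, fell (median -0.80). Their part in the rise of Edem1 was not tested. The GFP arrays of 20 weeks also enter the HOXB4 comparison at that time. The highest of the 5 group means was that of GFP at 20 weeks for 16 of the 34 genes, and the lowest was that of HOXB4 at 20 weeks for 15.

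Within the HOXB4 cells, no member was called by limma between 12 and 20 weeks, with 5 at an unadjusted p under 0.05, beside 0.187% of all genes lower and 0.0643% higher. From 6 to 12 weeks Hyou1 (-0.71 ± 0.12, adjusted p = 0.0172) and Creld2 (-0.66 ± 0.14, adjusted p = 0.0308) fell, beside 0.316% of all genes lower and 1.25% higher. Without HOXB4 replicate 2 or 3 of 12 weeks 0 genes of all tested by limma were called in this comparison. Hyou1 was 10.16, 10.09 and 10.33 and Creld2 8.68, 8.64 and 8.12 at 6 weeks. Hyou1 at 6 weeks was near its GFP levels of the later times, as was Hspa5 with 10.55, 10.69 and 10.67. Other members were not. HOXB4 at 6 weeks had the lowest of the 5 group means for 9 of the 34, among them Xbp1 (8.17) and Edem1 (7.32). The mean signal of the 34 was 8.327 in that group and 8.361 in HOXB4 cells of 12 weeks. In GFP cells it was 8.561 at 12 weeks and 8.694 at 20 weeks. From 6 to 20 weeks Hspa5 (-0.68 ± 0.12, adjusted p = 0.0065) and Hyou1 (-0.47 ± 0.12, adjusted p = 0.038) fell and Derl1 rose (0.75 ± 0.17, adjusted p = 0.0266), beside 1.36% of all genes lower and 3.3% higher.

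Repeating the quantile normalisation changed the split of all genes called to 72 lower and 154 higher (from 54 and 214) for 12 against 6 weeks, to 329 and 402 (from 232 and 564) for 20 against 6 weeks, and to 30 and 2 (from 32 and 11) for 20 against 12 weeks. HOXB4 replicate 1 of 6 weeks had a 3′ minus 5′ log2 signal of the Gapdh control probe sets of 3.764, beside 0.809 to 2.016 on the other 14 arrays. The value of 2.016 belongs to HOXB4 replicate 3 of 20 weeks, which also had the lowest mean signal of the 34 genes of all arrays (8.063). Without that array 10 of the 12 genes lower at 20 weeks were still called, Xbp1 with a difference of -0.91 among them, beside 641 of all genes lower. Without HOXB4 replicate 1 of 6 weeks the 6-to-12-week calls went from 2 to 1, losing Creld2, and the 6-to-20-week calls from 3 to 2, where Hyou1 and Derl1 were lost and Calr was gained. Any HOXB4 array of 12 weeks left out ended both 6-to-12-week calls. In the 6-to-20-week comparison Hyou1 was also lost without HOXB4 replicate 3 of 6 weeks or any HOXB4 array of 20 weeks, and Derl1 without HOXB4 replicate 2 of 20 weeks (0.49). In all, 6 of 14 alternatives ended the Derl1 call, and for the mean of its probe sets the difference was 0.17 (adjusted p = 0.422). The spread of the 34 was largest in that 6-week group, with a median SD of 0.275, beside 0.0868 to 0.233 in the others. The same held for all genes, with 0.203 in that group and 0.114 to 0.176 in the others. With no GFP arrays of 6 weeks used here, these changes cannot be told apart from changes that any transplanted cells undergo.

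Genes of the same machinery outside the 34 were counted from 6 fixed lists. The shares to set beside each count are those of all genes, 2.2% lower and 1.82% higher at 12 weeks. At 20 weeks they were 5.18% lower and 3.77% higher. Of 28 other ER folding genes 1 was lower at 12 weeks and 10 at 20 weeks. Those with the smallest p were Ero1a, the oxidase that recharges disulfide isomerases (-1.62, 3.07-fold), the ATPase gene Tor1a (-1.37), the isomerase gene Pdia5 (-1.65) and Mogs (-0.92), the glucosidase that trims new glycans. Ero1a had means of 7.997 ± 0.0342 (SD, n = 3) in GFP cells and 7.602 ± 0.103 in HOXB4 cells at 12 weeks. The means of 20 weeks were 8.77 ± 0.211 and 7.15 ± 0.387. It was called in the difference between both effects (-1.23 ± 0.24, adjusted p = 0.0364), and Ero1a and Tor1a rose in GFP cells from 12 to 20 weeks (0.77 and 0.95).

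Of 27 other genes of translocation, signal peptidase and N-glycosylation 1 was lower at 12 weeks and 11 at 20 weeks, with a median of -0.49 at 20 weeks. They included the oligosaccharyltransferase genes Rpn2 (-0.902), Ddost (-0.78) and Stt3b (-0.44) and the TRAP subunit gene Ssr2 (-1.201, 2.3-fold). Of 19 other degradation genes 3 were lower at 20 weeks, among them Selenos (-0.67) and Edem2 (-0.63), and the deglycosylase gene Ngly1 was higher (0.88). Of 31 genes of COPII and COPI vesicles, which carry proteins between ER and Golgi, 2 were lower at 12 weeks and 6 at 20 weeks, led by the coat gene Sec24d (-1.09).

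Of 21 other sensors and regulators 1 was lower at each time, Atf6b, a paralogue of Atf6 (-0.69 and -0.94, adjusted p = 0.0101 and 0.00036). At 20 weeks that count was near the 5.18% of all genes called lower, and nothing was read from it about the list. Of 28 other targets of ATF4 3 were lower at 12 weeks and 4 at 20 weeks. At 20 weeks these were Cebpb (-1.54, 2.91-fold), a transcription factor of granulocytes and monocytes, the amino acid transporter gene Slc7a5 (-0.97) and the synthesis genes Asns (-1.33) and Phgdh (-0.51). The C/EBP-ATF element was in 6 of 24 of these targets with a RefSeq promoter (25%), beside the 1.03% of all genes given above.

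**Figure D4:**
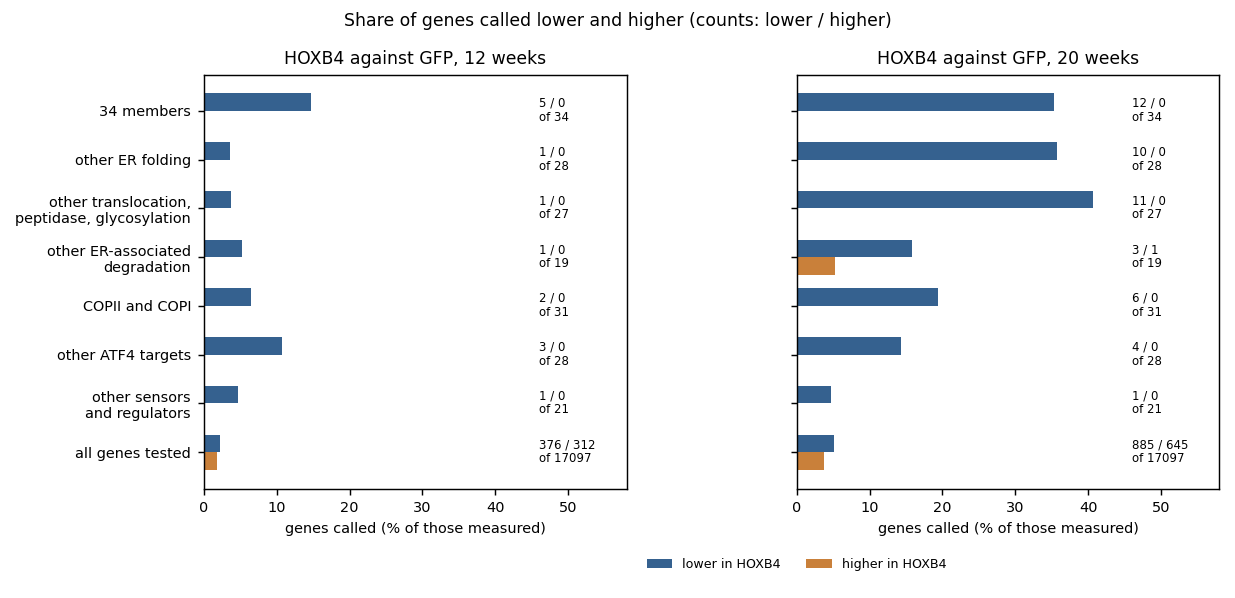
Bars give the percent of measured genes called lower (blue) or higher (orange) in HOXB4 than in GFP cells at each time, for the 34 genes, the 6 related lists and all genes tested. At 20 weeks 35.3% of the 34 were lower, beside 5.18% of all genes, and the folding and translocation lists had 10 of 28 and 11 of 27.

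The arrays read LSK cells as a bulk, so fewer cells of a type and less RNA per cell cannot be told apart. Of 10 genes listed for LSK cells 7 were measured, Kit, Flt3, Cd34, Slamf1, Procr, Gata2 and Meis1. The gene of Sca-1, Ly6a, was not among them, and of the 7 only Kit defines the sort. The mean signal of the 7 was 7.25 to 7.399 on the GFP arrays of 20 weeks and 7.58 to 8.55 on the other arrays. At 12 weeks 2 of these, Kit and Cd34, were lower in HOXB4 cells (median -0.28), and at 20 weeks 3, Flt3, Slamf1 and Gata2, were higher (median 0.92). Kit itself had group means of 8.07 to 8.70, with 8.40 in GFP cells of 20 weeks. Of the 9 lineage genes that the sort should remove 6 were measured, with list means of 4.80 to 5.87 on single arrays. Among these the myeloid integrin gene Itgam was at 6.72 ± 0.076 (SD, n = 3) in GFP cells of 20 weeks and 4.56 to 5.13 as the mean of the other groups. Over all 45141 probe sets, arrays of 1 group correlated at 0.967 to 0.994 and arrays of different groups at 0.948 to 0.987, so that these ranges overlapped. Of the 34 genes 28 were among the 5699 brightest of all genes by mean signal, where 3.9% of genes were lower and 1.23% higher at 12 weeks, and 8.49% lower and 5.09% higher at 20 weeks.

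Most primary granule markers of granulocyte progenitors were lower in HOXB4 than in GFP cells. Of all genes 2.2% were lower at 12 weeks and 5.18% at 20 weeks, and 1.82% and 3.77% were higher. In the list of primary granule genes of granulocyte progenitors, 8 of 10 were measured, and 6 were lower in HOXB4 cells at 12 weeks and 7 at 20 weeks, with medians of -1.53 and -2.97. The list's mean signal was 9.997 to 10.26 on GFP and 8.57 to 8.95 on HOXB4 arrays at 12 weeks, and 10.32 to 10.80 on GFP and 7.87 to 8.69 on HOXB4 arrays at 20 weeks. Elane, neutrophil elastase, fell 4.54-fold at 12 weeks and 13.6-fold at 20 weeks. Cst7 of the same list had higher means with HOXB4. They were 8.98 with GFP and 9.52 with HOXB4 at 12 weeks, and 7.85 and 8.90 at 20 weeks. No marker was absent from the signal, since array values have no true 0. Of 5 eosinophil markers 2 were lower at 12 weeks and 3 at 20 weeks, with medians of -2.27 and -2.72. Megakaryocyte markers went the other way, with 2 of 8 higher at 12 weeks and 5 of 8 at 20 weeks (medians 0.39 and 1.43). Mast cell and basophil markers were mixed. Ms4a2 had means of 7.21 with GFP and 9.25 with HOXB4 at 12 weeks, and 5.84 and 9.28 at 20 weeks. Mcpt8 was lower with HOXB4, at 7.43 and 5.85, then 7.84 and 6.15. The mean signal of that list was 6.16 to 6.53 on GFP and 6.21 to 6.35 on HOXB4 arrays at 12 weeks. At 20 weeks it was 5.83 to 5.96 on GFP and 6.23 to 7.08 on HOXB4 arrays. The part of any of these cells in the fall of the ER genes was not tested.

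Mature neutrophil markers were mostly lower in HOXB4 cells at 20 weeks and were mixed at 12 weeks. At 20 weeks 10 of 12 were lower in HOXB4 cells, and the list mean was 8.87 to 8.92 on GFP and 6.01 to 7.09 on HOXB4 arrays. At 12 weeks 1 of the 12 was called higher, and the list mean was 6.28 to 6.89 on GFP and 7.25 to 7.73 on HOXB4 arrays. Padi4 (means of 7.54 with GFP and 6.28 with HOXB4) and Cxcr2 (5.30 and 4.74) were lower in HOXB4 cells at that time. The other listed genes had higher means there. Monocyte markers were lower for 6 of 11 at 20 weeks and 1 of 11 at 12 weeks. B-lineage markers were higher for 10 of 10 at 12 weeks and 3 of 10 at 20 weeks, beside 1.82% and 3.77% of all genes. The part of these cells in the fall of the ER genes was not tested.

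Plasma cell markers, of which 5 of 9 were measured, were called by limma at neither time, with 1 at an unadjusted p under 0.05 at each. Their list mean was 5.60 to 5.74 on GFP and 5.84 to 6.29 on HOXB4 arrays at 12 weeks. Irf4 (means of 4.38 and 5.37), Prdm1 (4.91 and 5.20) and Tnfrsf17 (3.55 and 3.80) were then near or under the array medians of 5.247 to 5.397. Tnfrsf13b was at 7.41 with GFP and 7.33 with HOXB4. No direction was read from the list. The range was 6.03 to 6.77 on GFP and 5.93 to 6.56 on HOXB4 arrays at 20 weeks, with overlap. For Jchain, which joins the chains of secreted antibodies, the 20-week means were 10.43 ± 1.11 (SD, n = 3) with GFP and 9.51 ± 0.816 with HOXB4.

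**Figure D5:**
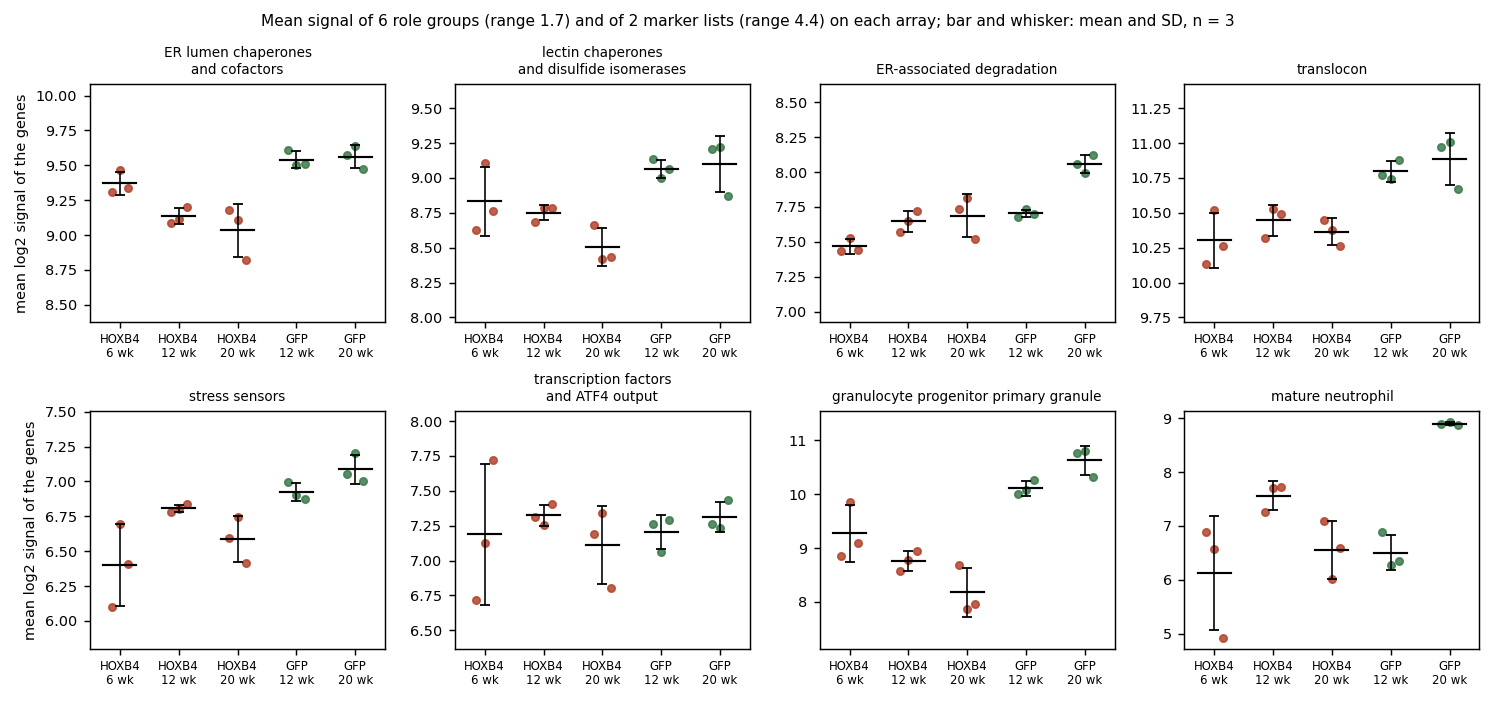
Mean log2 signal of each of the 6 role classes and of the primary granule and mature neutrophil lists on every array, with bars for group means and whiskers for SD (n = 3). The means of the lumen chaperones, the isomerases, the translocon and the sensors separate HOXB4 from GFP at 12 and 20 weeks, as the primary granule list does. For the sensors the 12-week gap is small (lowest GFP array 6.876, highest HOXB4 array 6.837). Of the sensors Ern1 alone separates the groups, and Eif2ak3 and Atf6 overlap. The mean of the mature neutrophil list is higher in HOXB4 at 12 weeks and lower at 20 weeks.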

How the data were processed

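The values are the authors' deposited log2 signals of 45141 probe sets on 15 arrays, made by RMA (background correction, quantile normalisation, probe summary) in Partek 6.5, per the submitters' processing notes. Per the labels' protocols, 20 ng of total RNA were amplified with NuGEN reagents. Other filters or scaling are not given in the sources used here. Detection calls were not used, and a dim value may be background; precision is set by how few arrays there are.

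Probe set names came from the platform annotation, updated by gene identifier to GRCm38.p6 symbols: 28898 had 1 symbol, 551 several and 15692 were not listed. The brightest probe set of each of 17097 genes entered 1 limma 3.58.1 fit (R 4.3.3; lmFit, eBayes) with a mean per group over all 15 arrays, which left 10 residual degrees of freedom plus 4.55 from the prior. In each of 8 comparisons two-sided p-values were adjusted over all genes by Benjamini-Hochberg, with 0.05 as the limit for a call. The script was tested on simulated data. The members and the lists of pathways and markers were chosen with earlier results of these data known. Values on every array of 12 and 20 weeks are given for members called in HOXB4 against GFP or in GFP over time, and for the sensors, Xbp1, Atf4, Ddit3 and Hspa5. Those of 6 weeks are given array by array for Hyou1, Creld2 and Hspa5 alone. Of each pathway list at most 4 genes, those with the smallest p, are named. Alternatives changed the arrays fitted, a replicate block, dim genes, probe sets, scaling, moderation, array weights and each replicate in turn. Promoters are RefSeq's. A GFP group at 6 weeks and protein sequences were not used here.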

Additional observations from a re-analysis of the deposited data

How the results depend on the processing

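Of 1816 member results under alternatives, 1646 kept their side of the threshold, 112 lost a call and 58 gained one; the sign changed in 29, none of them called before or after; for changes of call the cause was not tested. At 12 weeks 3 of the 5 called genes (Hyou1, Sdf2l1, Creld2) and at 20 weeks 9 of the 12 (all but Pdia6, Sec61b and Ern1) were called in all 15 alternatives. Fitting only the groups compared gave 17 members at 12 weeks (14 lower, 3 higher; of all genes 1598 lower and 995 higher, beside 376 and 312), 3 for GFP 20 against 12 weeks, 0 for HOXB4 12 against 6 weeks and 0 for 20 against 6 weeks. At 20 weeks it gave 9 members, and of all genes 439 lower and 276 higher, beside 885 and 645. Array weights gave 13 at 12 weeks (10 lower, 3 higher; of all genes 1632 and 1159, and 2326 and 1674 over both times beside 1566 and 1059), 1 for the difference between effects, 7 for GFP over time and 1 for HOXB4 20 against 6 weeks. With the mean of probe sets, 1 member each was called for HOXB4 12 against 6 and 20 against 6 weeks. Same-numbered arrays gave no clear sign of pairing (correlations of their deviations from -0.0311 to 0.0598 between GFP and HOXB4 at 1 time, and -0.167 to 0.115 over all 30 pairs). With 3 arrays per group such values cannot exclude a weak link. With a replicate block 4 members were called at 12 weeks, 10 at 20 weeks, 16 over both times and 1 for HOXB4 12 against 6 weeks. Leaving out 1 array at a time gave 3 to 4 members at 12 weeks (3 without replicate 1 of GFP or of HOXB4), 9 to 14 at 20 weeks, 12 to 17 over both times, 0 to 1 for GFP over time, 0 to 3 for HOXB4 12 against 6 weeks and 1 to 4 for 20 against 6 weeks. The median over the 34 at 20 weeks was -0.32 without HOXB4 replicate 3. In an alternative chosen after seeing the data, HOXB4 replicate 1 of 6 weeks was left out of the fit, and 6 members were called at 12 weeks and 15 at 20 weeks. No scaling moved the median of all genes by over 0.1.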
